A study of Mus musculus with 38 samples.

Results

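The genes described here are 9 antimicrobial alarmin genes of mouse skin: S100a8, S100a9, Lcn2, Slpi, Camp, Defb1, Defb3, Defb6 and Defb14. They were chosen by gene symbol, and all 9 were found among the 49585 genes of each of the 4 deposited tables. The study measured RNA in mouse back skin after Krt14-CreER had deleted Srsf2 or switched on its P95H mutation. Srsf2 encodes a splicing factor of the SR family. Krt14-CreER is a recombinase that tamoxifen activates in cells expressing keratin 14, the basal layer of the epidermis and the hair follicle. All whole-skin mice, controls included, received topical 4-hydroxytamoxifen every other day. The whole-skin controls were Cre negative and are labelled with the same Srsf2 line as the mice they were compared with.

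The knockout set of whole skin held 3 controls and 3 SRSF2-KO mice each after 4, 10 and 12 days. Control replicates 1 and 2 were treated for 12 days and control replicate 3 for 10 days. No control was treated for 4 days, so at that time genotype and length of treatment cannot be told apart. These mice were heterozygous, homozygous or wild type for the tdTomato reporter, in a mix that differed between groups. The SRSF2-P95H set, all wild type for tdTomato, compared 2 mutant mice with 5 controls after 12 days and 4 mutant mice with 3 controls after 28 days. The sources used here do not say whether the P95H allele was heterozygous in whole skin. Reporter-positive cells were sorted from the back skin of 3 control and 3 SRSF2-KO mice at 10 days. They were also sorted from 3 control and 3 SRSF2-P95H-het mice at 20 weeks, after tamoxifen injection and DMBA/TPA, which pairs a mutagen with a tumour promoter. The sources used here give neither the Cre status of the mice used for sorting nor the age of any mouse. Libraries are labelled as biological replicates, and every p-value below measures the spread between these animals.

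Antimicrobial peptides and proteins are made by keratinocytes and by the leukocytes that enter skin, and they are known to rise in wounds, psoriasis and infection. S100a8 and S100a9 encode the subunits of calprotectin, a metal-binding complex that starves microbes of zinc and manganese and acts as a danger signal outside the cell. Lcn2 encodes lipocalin 2, which binds bacterial siderophores, and Slpi encodes an inhibitor of neutrophil serine proteases. Camp encodes the precursor of the cathelicidin peptide, which neutrophils store in granules. The beta-defensins are small cationic peptides that damage microbial membranes and attract leukocytes. Defb1 is known as the constitutively made member of that family, and Defb3 and Defb14 as members induced by inflammation or microbes. Because neutrophils carry much S100A8, S100A9, LCN2 and cathelicidin, markers of neutrophils are given beside these genes.

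Positions are from GENCODE M21 on GRCm38, and the length after each is that of its annotated transcript. S100a8 (ENSMUSG00000056054.9) spans chr3:90668978-90670035 on the plus strand, with 3 exons and 486 bases. S100a9 (ENSMUSG00000056071.12) lies 22596 bases away at chr3:90692632-90695721 on the minus strand, with 3 exons and 512 bases. Both are in the cluster of S100 and cornified envelope genes. Lcn2 (ENSMUSG00000026822.14) spans chr2:32384633-32388252 on the minus strand with 6 exons and 915 bases. Slpi (ENSMUSG00000017002.14) spans chr2:164354070-164389095 on the minus strand with 4 exons and 876 bases, and one of its exons overlaps the microRNA gene Mir7678. Camp (ENSMUSG00000038357.10) spans chr9:109847379-109849617 on the minus strand with 4 exons and 758 bases. The 4 defensin genes lie on chromosome 8, each with 2 exons on the plus strand. Defb14 (ENSMUSG00000046354.3, 204 bases) is at chr8:19194357-19195212, Defb6 (ENSMUSG00000050756.3, 323 bases) at chr8:19225478-19228209 and Defb3 (ENSMUSG00000039775.7, 275 bases) at chr8:19293360-19295291. Defb1 (ENSMUSG00000044748.8, 872 bases) lies apart from these, 2481307 bases beyond Defb3, at chr8:21776599-21795185.

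The sequences just before the starts of Defb6, Defb3 and S100a9 are shown because Defb6 was the most and Defb3 one of the least abundant of these genes, and S100a9 had the largest difference from control. Of the 9 genes 7 matched an entry, all but Defb1 and Defb14. They are from RefSeq on GRCm38.p6, run 5′ to 3′ on the gene's strand and hold no annotated exon. Capitals mark matches to the motifs searched. Defb6 is read from chr8:19225228-19225477, Defb3 from chr8:19293111-19293359 and S100a9 from chr3:90695722-90695971.
Defb6: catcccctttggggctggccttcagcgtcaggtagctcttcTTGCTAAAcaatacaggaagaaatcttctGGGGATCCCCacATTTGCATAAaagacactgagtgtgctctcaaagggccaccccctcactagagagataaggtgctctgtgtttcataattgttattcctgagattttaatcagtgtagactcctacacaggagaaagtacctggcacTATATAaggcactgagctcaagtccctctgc
Defb3: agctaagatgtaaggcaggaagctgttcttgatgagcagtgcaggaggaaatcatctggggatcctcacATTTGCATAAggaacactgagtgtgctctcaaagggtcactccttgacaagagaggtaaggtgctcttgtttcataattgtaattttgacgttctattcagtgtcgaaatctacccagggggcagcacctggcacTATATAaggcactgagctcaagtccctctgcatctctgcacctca
S100a9: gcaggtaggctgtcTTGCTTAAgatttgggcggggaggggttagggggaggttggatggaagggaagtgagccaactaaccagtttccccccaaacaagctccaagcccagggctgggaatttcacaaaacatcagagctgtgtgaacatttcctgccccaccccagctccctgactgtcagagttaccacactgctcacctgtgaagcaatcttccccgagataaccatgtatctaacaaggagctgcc
The windows of Defb6 and Defb3 resembled each other: in an alignment with gaps, 192 of 235 aligned bases (81.7%) were the same. Both hold the octamer ATTTGCAT, at 168 bases before the start in Defb6 and 181 in Defb3, overlapped by a C/EBP match (TTGCNNAA). Both also hold a TATA match (TATANA), at 31 and 46 bases. Defb6 alone of these holds a kappaB match, at 180 bases, and a further C/EBP match at 209 bases. S100a9 holds 1 C/EBP match, at 236 bases, and Slpi and Lcn2 1 each in their own windows. S100a8 holds overlapping TATA matches at 32 and 30 bases in its own window. Motifs were searched on both strands in the 250 bases before each start, and no AP-1 (TGANTCA) or STAT (TTCNNNGAA) match was found in the 7 windows searched. Of 32851 windows of that length, 9.56% hold the C/EBP letters, 1.6% the octamer, 22.6% the TATA letters, 7.25% the kappaB motif, 6.75% the AP-1 letters and 7.02% the STAT letters. A match describes letters only, and no binding was measured.

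Values in whole skin are normalised counts, given in steps: each deposited value was a whole multiple of 1 smallest unit per library, and the lowest value, that of undetected genes, was 1 step except for 0 to 40 genes per library listed at 0. Steps summed to 28.5 to 37.5 M (M for mega) per library in the knockout set and 16.1 to 17.4 M in the P95H set. In sorted cells the deposited normalised counts are given, and they rest on 45.9 to 92.8 M and 11 to 17.2 M reads per library. Fold changes come from limma on log2(value + 1), so they understate the change of low genes, and the SE is of the log2 difference. A gene was called changed at an adjusted p under 0.05 (Benjamini-Hochberg over all genes with a mean of at least 10). Srsf2 transcript itself was not called different from control in whole skin of either set (log2 difference -0.28 to 0.15 in the knockout set). Between times of knockout it was called, at 0.30 from 4 to 10 days and -0.43 from 10 to 12 days. In sorted knockout cells it was lower than in sorted controls, with a log2 difference of -2.71 and a limma adjusted p of 0.043. Replicate 2 of the sorted knockout cells stood apart, with 29616 genes at 0 and a deposited sum of 157 M against 54.9 to 66.6 M in the other libraries of its table.

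S100a8 and S100a9 were near control levels 4 days into Srsf2 deletion and many times higher at 10 and 12 days. S100a8 read 22, 7 and 40 steps in control replicates 1, 2 and 3, and 5, 18 and 43 in knockout skin at 4 days. At 10 days it read 107, 441 and 64, and at 12 days 238, 336 and 382. All 6 libraries of these later times lay above all controls, with replicate 2 highest at 10 days. The difference from control was 2.89 (SE 0.83, 7.44-fold, limma adjusted p = 0.0285) at 10 days and 4.00 (16-fold, limma adjusted p = 0.0432) at 12 days on the log2 scale. S100a9, which encodes the partner subunit, read 36, 9 and 36 in controls, 12, 29 and 56 at 4 days, 88, 609 and 47 at 10 days and 565, 666 and 624 at 12 days. Its values at 12 days were close together, while at 10 days replicate 2 was far above the others and replicate 3 was only just above the controls. S100a9 rose at 12 days (log2 4.69, SE 0.85, 25.8-fold, limma adjusted p = 0.0284) and missed the threshold at 10 days (log2 2.52, limma adjusted p = 0.0502). It was called at 10 days with genes of a mean of at least 50 (limma adjusted p = 0.0493), on the deposited values (0.0334), with median-ratio factors (0.0489) and without knockout replicate 3 (0.0316). In bulk skin, more cells that make a transcript and more RNA per cell cannot be told apart. Leaving out any 1 of the 6 libraries compared ended both calls at 12 days, although the log2 difference stayed between 3.35 and 4.53 for S100a8 and between 4.06 and 5.01 for S100a9. The call of S100a8 at 12 days was also lost with genes of a mean of at least 50 (limma adjusted p = 0.0541). The call of S100a8 at 10 days was lost without control replicate 1, control replicate 2, knockout replicate 1 or knockout replicate 2 (adjusted p 0.0516 to 0.117).

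**Figure D1:**
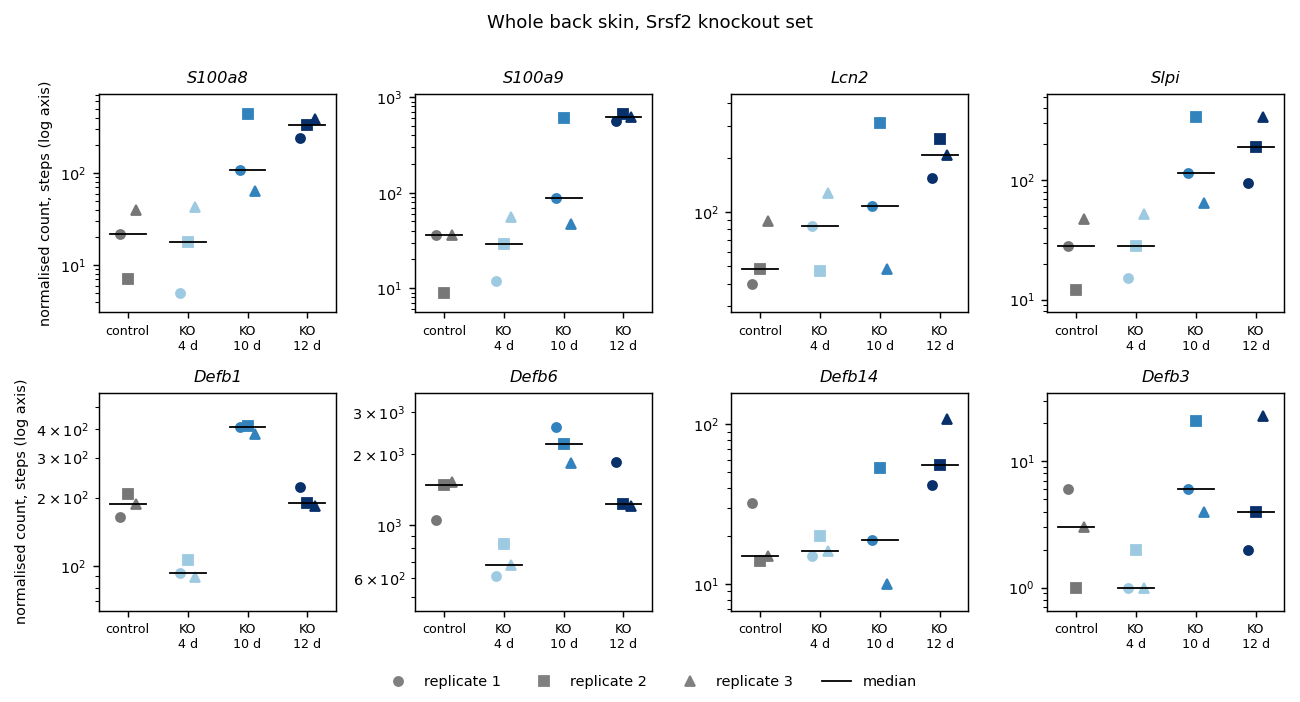
Normalised counts in steps (log axis) of 8 antimicrobial genes in each whole-skin library of the knockout set, 1 symbol per replicate number and a black line at the group median; 1 step is the value of an undetected gene. S100a8, S100a9 and Slpi lie above all controls at 10 and 12 days, while Defb1 and Defb6 are lowest at 4 days and highest at 10 days.

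Slpi was called higher at 10 days, and Lcn2 at none of the 3 times. Slpi, the protease inhibitor, read 28, 12 and 47 steps in controls, 15, 28 and 52 at 4 days, 115, 340 and 64 at 10 days and 95, 190 and 340 at 12 days. All 6 later libraries exceeded all controls, with replicate 2 highest at 10 days and replicate 3 at 12 days. It rose 5.22-fold at 10 days (log2 2.38, SE 0.70, limma adjusted p = 0.0303) and stood at log2 2.81 without passing at 12 days (limma adjusted p = 0.0714). The call at 10 days was lost on leaving out any of the same 4 libraries as for S100a8, and was 1.73 without knockout replicate 2. Lcn2, the siderophore binder, started higher, at 40, 48 and 89 in controls, with 84, 47 and 128 at 4 days. It read 108, 312 and 48 at 10 days, overlapping the controls through replicate 3, and 155, 255 and 207 at 12 days, above all of them. Its differences of 1.07 (SE 0.59) at 10 days and 1.84 at 12 days had limma adjusted p of 0.201 and 0.125.

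Defb1 and Defb6 fell at 4 days, rose at 10 days and were back at control levels at 12 days. Defb6, the beta-defensin with the highest level per kilobase of the 9 genes, read 1058, 1474 and 1521 steps in controls and 611, 836 and 680 at 4 days. It then read 2601, 2199 and 1842 at 10 days and 1852, 1230 and 1210 at 12 days. No knockout library overlapped the controls at 4 or at 10 days, while the 12-day values spread across theirs. Defb6 was lower by 0.92 log2 units at 4 days (log2 -0.92, SE 0.21, 1.90-fold, limma adjusted p = 0.019) and higher at 10 days (log2 0.72, SE 0.21, 1.64-fold, limma adjusted p = 0.029). Defb1 read 164, 207 and 187 in controls, 93, 106 and 89 at 4 days, 409, 414 and 383 at 10 days and 222, 189 and 184 at 12 days. Its replicates lay close together, with the 4-day group wholly below the controls and the 10-day group wholly above them. Defb1 differed from control by -0.94 (SE 0.14, limma adjusted p = 0.00656) at 4 days and by 1.11 (SE 0.14, 2.16-fold, limma adjusted p = 0.00237) at 10 days. At 12 days the differences were 0.09 for Defb1 (limma adjusted p = 0.748) and 0.07 for Defb6 (limma adjusted p = 0.887).

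The calls of Defb1 held when any 1 library was left out. That of Defb6 at 4 days was lost without knockout replicate 1, knockout replicate 3 or control replicate 2 (adjusted p 0.0525 to 0.0828), and at 10 days without knockout replicate 1, knockout replicate 2, control replicate 1 or control replicate 2 (0.0652 to 0.0958). With libraries scaled to equal totals the median gene at 10 days stood at -0.34, and Defb6 was then 0.40 higher (limma adjusted p = 0.192) while Defb1 stayed called at 0.80. Markers of the hair shaft and inner root sheath were also highest at 10 days and below most controls at 4 days, but at 12 days they were as low as at 4 days. Their summed level above 1 step, over 19 genes, was 5735 to 229544 in controls, 1502 to 30035 at 4 days, 4440550 to 5907660 at 10 days and 889 to 39526 at 12 days. Their part in the changes of Defb1 and Defb6 was not tested.

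The other defensins and Camp were scarce. Defb14 read 32, 14 and 15 steps in controls, 15, 20 and 16 at 4 days, 19, 53 and 10 at 10 days and 42, 56 and 108 at 12 days. At 12 days all 3 libraries exceeded the controls, with replicate 3 highest, but the difference of 1.69 (SE 0.54) did not pass (limma adjusted p = 0.127). Defb3 had a mean under 10 and was not tested: controls read 6, 1 and 3, the 4-day skin 1, 2 and 1, the 10-day skin 6, 21 and 4 and the 12-day skin 2, 4 and 23. Its highest library at 10 days was replicate 2, which was also highest for S100a8, S100a9, Lcn2, Slpi and Defb14. At 12 days it was replicate 3, also highest for S100a8, Slpi and Defb14. Camp, the cathelicidin gene, lay between 1 and 3 steps in all 12 libraries and was therefore not measurable above the undetected level.

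At 4 days 2 of the 7 tested genes of this group were lower than control and none higher, where 11.3% of all 19450 genes tested were called in either direction. At 10 days 4 of 7 were higher and none lower, against 25.3% of all genes. At 12 days 2 of 7 were higher, against 1.28% of all genes, and 5 of 7 did not overlap the controls, against 22.6%. The median log2 difference of the 7 was -0.16, 1.11 and 1.84 at 4, 10 and 12 days, beside -0.01, -0.02 and 0.00 for all genes tested. The 3 comparisons share the same 3 controls.

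Between times, knockout skin was compared without the controls. From 4 to 10 days 4 of 7 genes rose (40.3% of all genes were called): S100a8 by 3.09 (limma adjusted p = 0.0123), Slpi by 2.24 (0.0248), Defb1 by 2.06 (3.47e-05) and Defb6 by 1.64 (0.000194) on the log2 scale. Defb1 and Defb6 kept this rise without any 1 library. S100a8 lost it without the 4-day replicate 1, and Slpi without the 4-day replicate 1 or 2 or the 10-day replicate 2. S100a9 differed by 2.29 (limma adjusted p = 0.0512). It was called with a pseudocount of 8 (0.0492), on the deposited values (0.026), with median-ratio factors (0.0491), without the 10-day replicate 3 (0.0194) and without the 4-day replicate 3 (0.0402). From 10 to 12 days 2 of 7 fell and 1 rose (37.6% of all genes were called). Defb1 fell by 1.02 (limma adjusted p = 0.000533) and Defb6 by 0.64 (limma adjusted p = 0.0307), whereas Defb14 rose by 1.5 (limma adjusted p = 0.049). The 12-day group overlapped the 10-day group for Defb6 and Defb14, and not for Defb1. The Defb6 call was lost without the 10-day replicate 1 or 2 or the 12-day replicate 2 or 3, and that of Defb14 on leaving out any of the 6 libraries except the 10-day replicate 2. At equal totals Defb6 differed by -0.34 and was not called, and Defb14 was not called on the deposited values (1.3, limma adjusted p = 0.131) or under 4 other settings. S100a9 differed by 2.17 (limma adjusted p = 0.0657) and was called, at 3.24 (limma adjusted p = 0.00649), without the 10-day replicate 2, as was Lcn2 at 1.47 (limma adjusted p = 0.0435).

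Wound keratinocyte markers and neutrophil markers were followed beside the alarmins. Of the wound keratinocyte markers, genes such as Krt6b and Sprr2d that epidermis makes on injury, none of 8 was called at 4 days, 7 were higher at 10 days and 2 at 12 days. Their summed level above 1 step was 31516 to 51999 in controls, 14285 to 25568 at 4 days, 97378 to 266892 at 10 days and 33822 to 191185 at 12 days. Its highest library was replicate 2 at 10 days and replicate 3 at 12 days, the same ones as for S100a8 and Slpi. All 19 tested markers of the hair shaft and inner root sheath were also higher at 10 days. The part of hair follicle cells in the wound keratinocyte values was not tested. Neutrophil markers summed to 2104 to 2571 in controls, 3243 to 4809 at 4 days, 1628 to 2537 at 10 days and 4090 to 5019 at 12 days. At 10 days that sum overlapped the controls, and at 4 and 12 days it was above them. It does not by itself measure neutrophils: sorted reporter-positive control cells, normalised separately, gave 2181 to 2958. The neutrophil sum too was highest in replicate 2 at 10 days (2537) and in replicate 3 at 12 days (5019). S100a9 and Lcn2 at 12 days were instead highest in replicate 2. Of the 22 neutrophil markers 10 were tested: 2 were higher at 4 days, 3 higher and 2 lower at 10 days, and 3 higher at 12 days, among them Cxcr2 by 2.56. Of the 22, 6 never exceeded 5 steps in any of the 12 libraries: Ly6g, Elane, Ngp, Cxcr1, Mrgpra2b and Stfa2l1. Elane and Ngp are transcribed mainly in marrow precursors. Macrophage and monocyte markers, 12 of 14 called higher at 4 days, summed to 42427 to 64607 in controls and 108698 to 197731 at 4 days. At 10 days they summed to 32984 to 52003 and at 12 days to 83753 to 102232. The part of any of these cells in the alarmin values was not tested.

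In P95H skin Defb1 and Defb6 rose at both times and Lcn2 at 12 days. Defb6 read 1035, 792, 773, 812 and 532 steps in the 5 controls at 12 days and 1751 and 1667 in the 2 P95H mice. At 28 days it read 1151, 959 and 898 in control replicates 1, 2 and 4 and 1429, 2045, 1659 and 1786 in the 4 P95H mice. Every P95H library lay above every control of its time. The differences were 1.15 (SE 0.19, 2.21-fold, limma adjusted p = 0.00231) at 12 days and 0.78 (SE 0.17, 1.72-fold, limma adjusted p = 0.0114) at 28 days. Defb1 read 173, 218, 229, 188 and 219 in 12-day controls against 360 and 404, and 214, 225 and 196 in 28-day controls against 282, 412, 312 and 382. It too was separate at both times, at 0.90 (SE 0.15, limma adjusted p = 0.00231) and 0.70 (SE 0.14, limma adjusted p = 0.00601). Hair shaft markers, which in the knockout set were highest at 10 days, summed to 1270 to 38691 in 12-day controls and 916 to 4599 in 12-day P95H skin. At 28 days they summed to 755 to 1228 in controls and 1195 to 1292 in P95H skin, and none of the 19 was called at either time. Differentiated keratinocyte markers summed to 79536 to 118721 in controls and 128638 to 201012 in P95H skin at 12 days, and to 127953 to 159280 and 179819 to 239476 at 28 days, with no overlap at either time. Of these 8 markers 3 were higher and 1 lower at 12 days, and 4 higher and 1 lower at 28 days. Sebaceous gland markers, 6 of 8 higher at 12 days and 1 of 8 at 28 days, summed to 43291 to 61529 in controls and 87861 to 107117 in P95H skin at 12 days, and to 63895 to 87147 and 74826 to 85825 at 28 days. Their part in the values of Defb1 and Defb6 was not tested.

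**Figure D2:**
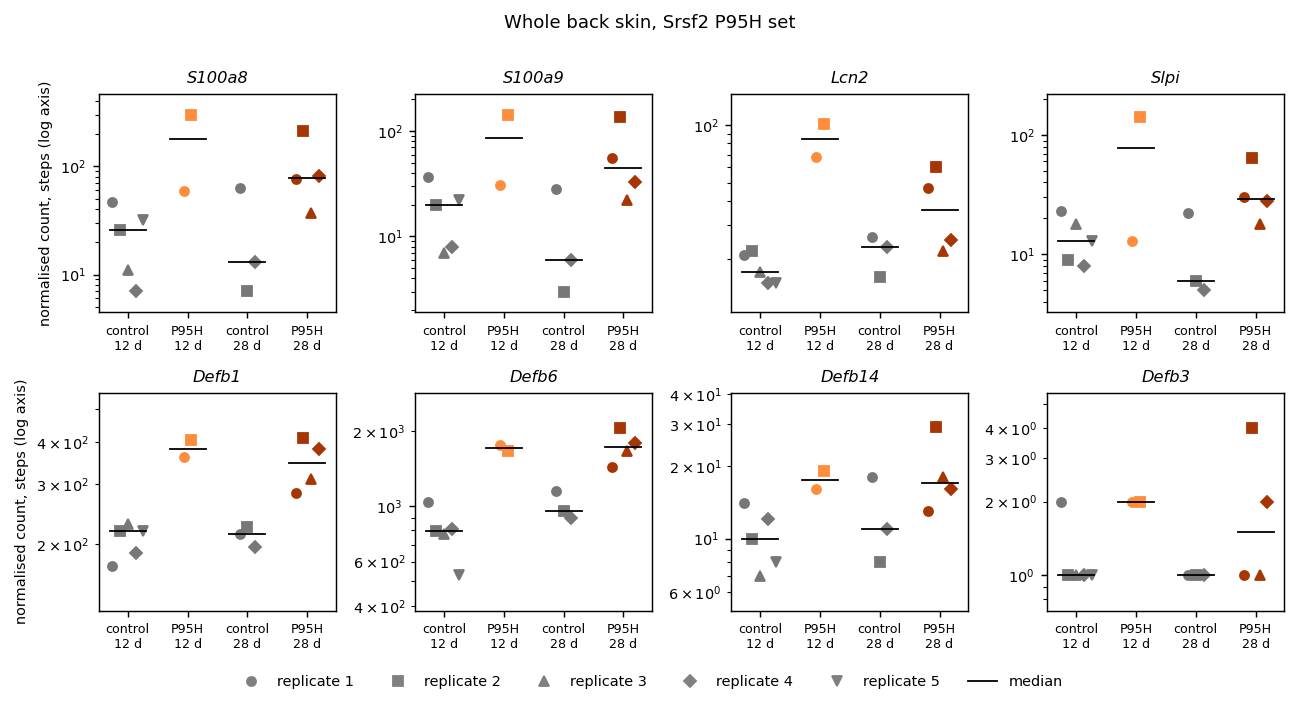
Normalised counts in steps (log axis) of the same 8 genes in each whole-skin library of the P95H set, 1 symbol per replicate number and a black line at the group median. Defb1 and Defb6 are higher in all 6 P95H libraries than in the controls of their time, and S100a8 is 59 and 297 in the 2 P95H libraries at 12 days against 7 to 47 in controls.

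Lcn2 was called at 12 days and not at 28 days, and the calprotectin genes and Slpi at neither time. Lcn2 read 21, 22, 17, 15 and 15 in controls and 68 and 101 in P95H skin at 12 days, with no overlap (log2 2.16, SE 0.35, 4.47-fold, limma adjusted p = 0.00206). At 28 days the controls read 26, 16 and 23 and the P95H mice 47, 60, 22 and 25, which overlap (log2 0.71, limma adjusted p = 0.159). S100a8 read 47, 26, 11, 7 and 32 in controls and 59 and 297 in P95H skin at 12 days, and 63, 7 and 13 against 76, 212, 37 and 82 at 28 days. Its P95H values were all above the median control of their time, but the 28-day groups overlapped through control replicate 1. The differences were 2.67 (SE 0.87, limma adjusted p = 0.0824) and 2.14 (SE 0.79, limma adjusted p = 0.092). S100a9 read 37, 20, 7, 8 and 22 against 31 and 142 at 12 days, and 28, 3 and 6 against 56, 135, 22 and 33 at 28 days. Its groups overlapped at both times (log2 2.01 and 2.41, limma adjusted p = 0.175 and 0.0547). Slpi read 23, 9, 18, 8 and 13 against 13 and 143, and 22, 6 and 5 against 30, 64, 18 and 28. One of the 2 P95H mice at 12 days was far above and the other among the controls (log2 1.66, limma adjusted p = 0.21, and 1.72, 0.115, at 28 days).

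Defb14 read 14, 10, 7, 12 and 8 against 16 and 19 at 12 days, and 18, 8 and 11 against 13, 29, 18 and 16 at 28 days, and was called at neither time (log2 0.76 and 0.59). Defb3 lay between 1 and 4 steps and Camp between 1 and 2 in all 14 libraries, and neither was tested. In all, 3 of 7 tested genes were higher at 12 days, against 6.93% of 18311 genes called in either direction, and 2 of 7 at 28 days, against 12.2%. None was lower. The P95H effect was not called different between 28 and 12 days for any of the 7 by limma (2 of all genes, or 0.0109%, were called). Of the 7, 1 had an unadjusted p under 0.05, as did 1504 of the 18311 genes: Lcn2, at -1.45 (SE 0.48, adjusted p = 0.468). Without the second P95H mouse at 12 days the calls of Lcn2 and Defb1 were lost (limma adjusted p = 0.0628 and 0.0604), and without the first Slpi stood at 3.34 (limma adjusted p = 0.0193). At 28 days the call of Defb6 was lost without control replicate 4 (limma adjusted p = 0.0663), and without control replicate 1 S100a8 (3, 0.0417) and S100a9 (3.23, 0.0296) were called. S100a9 was also called without P95H replicate 3 (2.78, limma adjusted p = 0.0375). The deposited values carry a further factor that moved the median of all genes by -0.10 and 0.59. On them S100a8 and S100a9 were called at both times, at 12 days with 2.57 and 1.92, and Slpi at 28 days with 2.24 (limma adjusted p = 0.000737), while Defb1 was not called at either (limma adjusted p = 0.99992 and 0.0619), nor Defb6 at 12 days.

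Wound keratinocyte markers rose in P95H skin, 4 of 8 at 12 days and 8 of 8 at 28 days. Their summed level was 8968 to 13966 in controls and 17346 and 65855 in P95H skin at 12 days, the second mouse being the one with the higher S100a8 and Slpi. At 28 days it was 5895 to 10413 in controls and 18696 to 43178 in P95H skin. Neutrophil markers summed to 1075 to 1452 against 2524 to 4961 at 12 days and to 1467 to 1682 against 2766 to 6550 at 28 days. At 12 days the higher neutrophil sum was again that of the second P95H mouse. Of 8 tested, 5 were higher and 1 lower at 12 days and 4 higher and 1 lower at 28 days, and the sums did not overlap at either time. Of the 22, 7 never exceeded 5 steps: Cxcr1, Elane, Fcnb, Ly6g, Mpo, Ngp and Retnlg. The sum thus rests on the remaining markers and does not by itself measure neutrophils. In sorted reporter-positive control cells at 10 days it was 2181 to 2958, while 13 of the 22 never exceeded 5 in that table. The part of wound keratinocytes or neutrophils in the alarmin values was not tested.

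**Figure D3:**
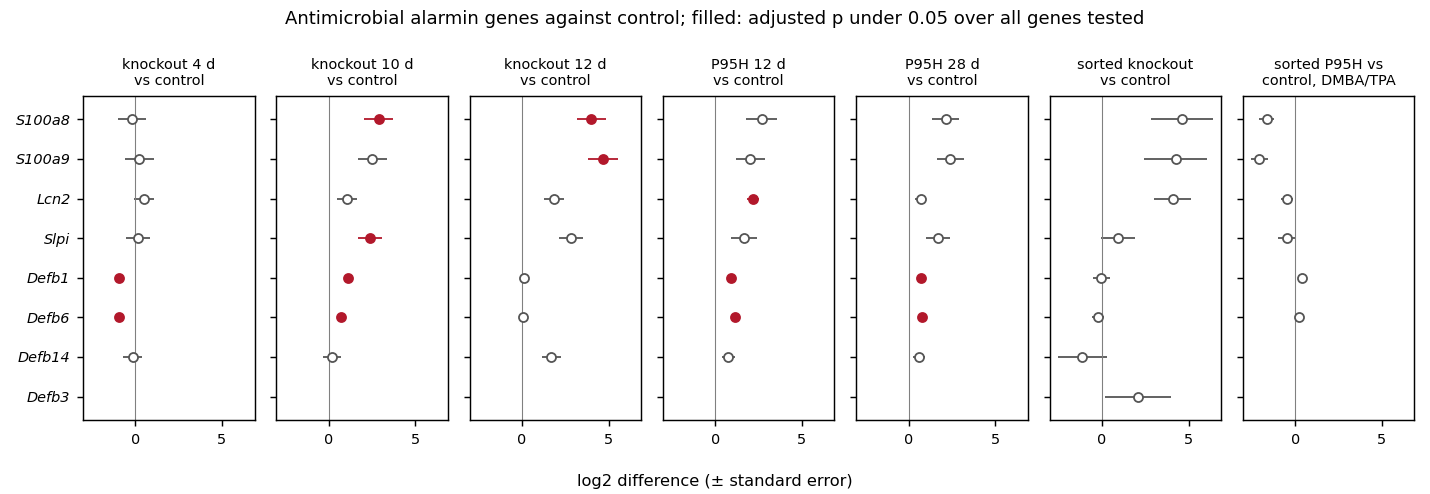
Log2 difference from control with its standard error for each tested gene in 7 comparisons; filled points have a limma adjusted p under 0.05 over all genes tested. At 4 days of knockout only Defb1 and Defb6 are filled, both on the low side, and in P95H skin both are filled on the high side at both times.

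In sorted reporter-positive cells the alarmins ranged widely between the knockout mice, and none was called changed. S100a8 read 11569, 75.3 and 695 in knockout replicates 1, 2 and 3 and 34.8, 163 and 6.0 in controls. S100a9 read 11284, 61.6 and 693 against 35.6, 186 and 9.4. Replicates 1 and 3 lay above all controls for both genes, and replicate 2, the library that stands apart, lay among them. The differences were 4.62 (SE 1.81, limma adjusted p = 0.259) and 4.25 (SE 1.81, 0.286), and 6.36 (0.0682) and 6.08 (0.068) without replicate 2. Lcn2 read 7711, 496 and 1469 against 112, 292 and 34.2, with all 3 knockout libraries above the controls. It was the one tested gene of the 8 with groups apart, against 28.6% of all genes, and it differed by 4.08 (SE 1.07, limma adjusted p = 0.169; 5 and 0.0511 without replicate 2). Replicate 1 was highest for these 3 genes and for Slpi, which read 517, 24.0 and 99.4 against 69.6, 49.3 and 51.3 (log2 0.93, limma adjusted p = 0.624).

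None of the 8 tested genes was called by limma, which called 0.0394% of 17744 genes. Its unadjusted p was under 0.05 for 3 of the 8 (S100a8, S100a9 and Lcn2) and for 3051 of the 17744. edgeR on the recovered reads called none of the 8 and 3 genes in all. Defb6 was abundant, at 17188, 9677 and 23406 in knockout cells and 18969, 14736 and 22958 in controls, as was Defb1 at 1590, 449 and 1567 against 1042, 811 and 1419. Replicate 2 was lowest for both, and the other knockout libraries lay within or near the range of controls. Their differences were -0.24 and -0.03, and 0.11 and 0.57 without replicate 2, none of them called. Defb3 read 323, 0 and 19.9 against 4.5, 7.4 and 0.9, and Defb14 71.8, 0 and 17.2 against 21.2, 19.6 and 29.1, with replicate 1 highest and replicate 2 at 0 for both. Camp was at 0 in all of these libraries but knockout replicate 1, where it read 0.71. Neutrophil markers summed to 12438, 1496 and 3489 in knockout replicates 1, 2 and 3 and to 2181 to 2958 in controls, while 13 of the 22, Ly6g, Elane and Csf3r among them, never exceeded 5. Wound keratinocyte markers summed to 528967, 292859 and 169248 against 164107 to 247800. Replicate 1 was thus highest for both marker lists and for the calprotectin genes, and their part in the values was not tested.

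After DMBA/TPA, sorted P95H-het cells had S100a8 and S100a9 at lower values than control cells, in a comparison where no gene passed. S100a8 read 16, 26.8 and 7.7 in P95H-het cells against 31.9, 65 and 55.2, and S100a9 4.9, 18.2 and 6.9 against 22.6, 46.4 and 57.7. Neither pair of groups overlapped. The differences were -1.63 (SE 0.43, limma adjusted p = 0.161) and -2.07 (SE 0.49, limma adjusted p = 0.137). Defb6 read 4610, 4373 and 4375 against 3553, 3585 and 4308, and Defb1 385, 438 and 364 against 299, 271 and 328. Both were higher in every P95H-het library than in any control, by 0.23 and 0.40, without passing (limma adjusted p = 0.303 and 0.189). Limma called 0% of 14914 genes and none of the 6 tested here. Of these 6, 4 did not overlap between groups, against 21.5% of all genes. The same 4 had an unadjusted p under 0.05, as did 2376 of the 14914. edgeR called none of the 6 and 1 gene in all. Lcn2 read 99.8, 141 and 155 against 128, 132 and 342, and Slpi 7.4, 18.2 and 36.8 against 25.3, 34.3 and 17.2, with overlap in both. Defb14 was at 1.2, 1.7 and 1.7 against 2.7, 6.5 and 12.1, Defb3 between 0.9 and 4.9 and Camp at 0 or 0.9, all too low to be tested. Ly6g, Elane, Ngp and Csf3r were among 16 of 22 neutrophil markers that never exceeded 5 in this table.

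**Figure D4:**
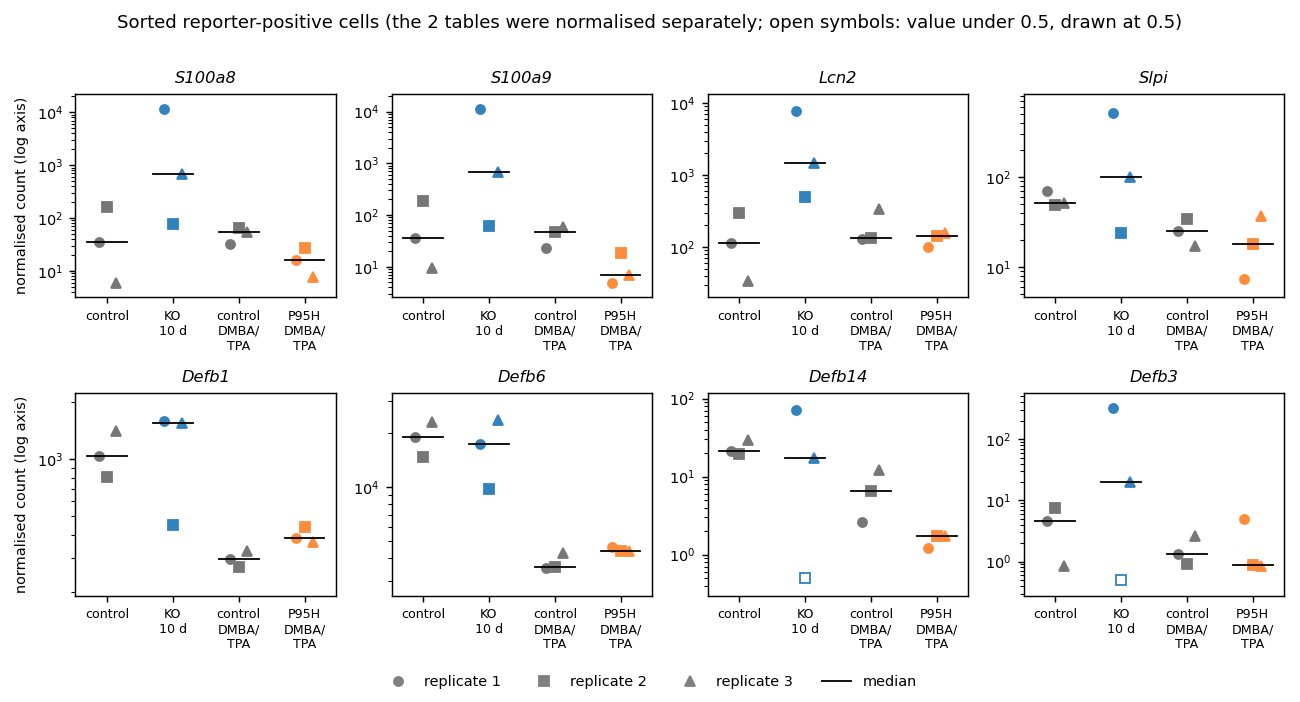
Deposited normalised counts (log axis) of the 8 genes in each library of sorted cells, 1 symbol per replicate number and a black line at the group median; the 2 tables were normalised separately and open symbols mark values under 0.5. S100a8 is at 11569 in knockout replicate 1 and 75.3 in replicate 2, whereas Defb6 lies between 9677 and 23406 in all libraries of that table.

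Per kilobase of transcript, Defb6 had the highest mean level of the 9 genes in every group of the knockout set, at 4183 steps in controls, 2195 at 4 days, 6854 at 10 days and 4429 at 12 days. Defb1 came next in controls and at 4 days, at 213 and 110. S100a9 came next at 10 and 12 days, at 484 and 1208, although at 10 days its libraries ran from 91.8 to 1189 and enclosed those of Defb1 and S100a8. Camp was last in all 4 groups.

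Related genes moved only in part with these. Beside the counts below, 11.3%, 25.3% and 1.28% of all genes were called at 4, 10 and 12 days of knockout. In P95H skin the shares were 6.93% at 12 days and 12.2% at 28 days. Of 17 other beta-defensins none reached a mean of 10 in whole skin, and 9 stayed at 1 step in all knockout-set libraries. Of 10 other epidermal S100 genes, 2 rose and 1 fell at 4 days of knockout (S100a4 by 1.21, S100a10 by 0.48 and S100a14 by -0.62). At 10 days 5 rose and none fell: S100a14 by 0.89, S100a16 by 1.09, S100a7a by 4.34 and S100a3 by 6.31 were the 4 with the smallest p. All 19 tested markers of the hair shaft and inner root sheath were also higher then. The part of hair follicle cells in these S100 values was not tested. None of the 10 S100 genes was called at 12 days, when S100a8 and S100a9 were, and S100a14 alone rose in P95H skin, by 0.71 at 28 days. Of 16 other antimicrobial proteins tested in the knockout set, 3 rose and 1 fell at 4 days, 2 rose and 1 fell at 10 days and 1 rose at 12 days. Among them was Cst6, an inhibitor of cysteine proteases, which followed the defensins with -1.34 at 4 days and 1.07 at 10 days. Sprr2a3, a small proline-rich protein gene, rose by 3.89 and 4.77 at 10 and 12 days and, in P95H skin, by 3.33 and 4.83 at 12 and 28 days. The lysozyme genes Lyz1 and Lyz2 rose at 4 days by 1.74 and 1.80. Lyz1 and Lyz2, and Sprr2a3 and its neighbours, are near-identical copies, so how reads were split between them is uncertain. In P95H skin 4 of 14 rose at 12 days and 5 at 28 days, Wfdc12, a relative of Slpi in the WAP family, by 3.35 and 3.34.

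Of 14 receptors and clearance genes tested 5 rose at 4 days and none fell. The calprotectin receptor Tlr4 (1.05) and its partners Cd14 (1.46) and Ly96 (1.10) were 3 of them, with Tlr2 (1.44) and Fpr2 (2.19), at a time when 12 of 14 macrophage and monocyte markers were also higher (median log2 difference 1.69). From 4 to 10 days 7 of the 14 receptors and clearance genes fell (40.3% of all genes were called), these 5 among them, as did 12 of the 14 macrophage and monocyte markers. The part of these cells in the receptor values was not tested. None of these 5 was among the 2 genes called at 10 days, Alcam at 1.27 and Cd36 at -1.20, and Ccr6, the receptor that binds beta-defensins, was the one called at 12 days (1.10). In P95H skin 2 of 13 rose at 12 days, Cd14 (1.52) and Myd88 (0.50), and 3 at 28 days, Ccr6 (1.71), Cd69 (1.09) and Myd88 (0.36). Of 27 inducers and regulators tested, 1 fell at 4 days of knockout, 4 rose and 2 fell at 10 days and none was called at 12 days. The shares of all genes called were 11.3%, 25.3% and 1.28%. In P95H skin 3 rose and 2 fell at 12 days, and 6 rose and 3 fell at 28 days, against 6.93% and 12.2% of all genes. Tgfa, which encodes a growth factor of keratinocytes, moved with the defensins, by -0.95 at 4 days and 1.41 at 10 days, and Vdr, the vitamin D receptor gene, rose by 1.20 at 10 days. Cebpb, whose product binds C/EBP motifs, rose by 0.57 at 10 days of knockout and by 0.77 and 0.52 in P95H skin. Il1b rose by 2.53 and 1.24 in P95H skin. Il20ra, a receptor subunit for cytokines that induce antimicrobial genes in keratinocytes, differed by -3.67 at 10 days of knockout and by -2.29 and -1.68 in P95H skin.

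Likeness was sought among genes with a mean of at least 50, leaving out predicted (Gm) and RIKEN models. Across the 12 knockout-set libraries, the genes most like S100a8 by Pearson r were Slpi (0.97), S100a9 (0.97), Epgn (0.95), Tnfrsf9 (0.94) and Gsta4 (0.94). In the 14 libraries of the P95H set the same pairs had r of 0.89, 0.97, 0.77, 0.75 and 0.71. Slpi was most like Prss27, S100a8, Krt16, Lce3d and Chil1 (0.98, 0.97, 0.97, 0.96 and 0.96), with 0.81 to 0.89 in the P95H set. Lcn2 was most like Mmp25, Tnf, Acox2, Crabp1 and Lce3d (0.94, 0.92, 0.90, 0.89 and 0.89), with 0.47 to 0.83 there. Defb6 was most like Defb1 (0.96), Cst6 (0.94), Plet1 (0.94), Cdkn2b (0.93) and Cast (0.93), and in the P95H set these pairs had 0.83, 0.78, 0.72, 0.15 and 0.0018. Between the groups of genes the likeness was lower in the knockout set: S100a8 with Defb1 had r of 0.54 and Lcn2 with Defb1 0.22, whereas in the P95H set the same pairs had 0.74 and 0.77. These correlations describe libraries that share groups and controls, and are over log2(value + 1).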

How the data were processed

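The labels' protocols give extraction with Trizol, a TruSeq Stranded Total RNA Gold kit for the knockout set and a stranded kit with Ribo-Zero plus for the P95H set. The submitters' processing notes name STAR, featureCounts and DESeq2. The sources used here give no version, role or genome build.

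By the name of each table, its deposited signal is a normalised count per gene. For sorted cells 100% of the values were whole multiples of a library's smallest positive value (tolerance 0.0001) and were taken back to reads. Whole-skin values were analysed in steps, since the deposited values carry a further factor per library. In the P95H replicate 1 at 28 days these steps are rescaled reads, as its low multiples lie more than 1 step apart. Of the 49585 genes, 93 have a repeated symbol.

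A limma fit (version 3.58.1, R 4.3.3, mean-variance trend) of log2(value + 1) was made per table, with all its groups, for genes with a mean of at least 10. Two-sided p were adjusted over all genes tested (Benjamini-Hochberg, threshold 0.05). The fit was tested on simulated data. edgeR 4.0.16 was run on recovered reads, where it called 3 genes for the sorted knockout and 1 for P95H-het. All 9 genes are named in each comparison, and of other lists up to 4 called genes with the smallest p. Likeness took the 5 highest Pearson r among genes with a mean of at least 50, leaving out symbols of predicted (Gm) and RIKEN models. The genes and lists were chosen with earlier results of these data known.

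Same-numbered whole-skin libraries deviated together with correlations of -0.46 to 0.84 in the knockout set and -0.19 to 0.37 in the P95H set, so numbers were not taken as pairs. Alternatives were pseudocounts of 0.5 and 8, a mean of at least 50 or no filter, other scalings, only the groups compared, a replicate block and leaving out each library.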

Additional observations from a re-analysis of the deposited data

Results flagged for a closer look

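In knockout skin 4 of 7 tested genes differed between 10 and 4 days by limma, where 40.3% of all genes were called. On the log2 scale S100a8 differed by 3.09, Slpi by 2.24, Defb1 by 2.06 and Defb6 by 1.64. From 10 to 12 days 3 of 7 differed, where 37.6% of all genes were called: Defb1 by -1.02, Defb6 by -0.64 and Defb14 by 1.5. Only Defb1 in both comparisons and Defb6 from 4 to 10 days stayed called whichever library was left out. In the 5 P95H-set controls at 12 days, 1 library stood off from the other 4 for Camp and 1 for Defb3, each at 2 steps where the others were at 1, the undetected level. Of 17 sets of group and gene checked 2 stood off in this way. The other 4 libraries had no spread in either set, so the nominal rate of 1 in 20 is no guide to these 2.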

How the results depend on the processing

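Of 89 counts of called genes under other settings, 3 moved by more than 1.5 times: knockout skin at 12 days went from 2 to 1 with a mean of at least 50, and P95H skin at 28 days from 2 to 4 on the deposited values. With the replicate block the count at 12 days of knockout went from 2 to 0 (S100a8 adjusted p = 0.0656 and S100a9 adjusted p = 0.0533). The block moved no other count of these genes by that much, but with it S100a9 was called in P95H skin at 28 days (2.75, adjusted p = 0.0284) and Defb14 was no longer called between 10 and 12 days (adjusted p = 0.0692). In both sorted tables every same-numbered pair correlated more than any other pair (lowest 0.058 and 0.056, highest other -0.0053 and 0.024), a hint from the data and not from the design. Leaving out 1 library each, the number of called genes ranged from 1 to 2 at 4 days of knockout, 1 to 5 at 10 days and was 0 at 12 days, from 2 to 5 between 4 and 10 days, 1 to 4 between 10 and 12 days, and 1 to 4 in P95H skin at 12 and at 28 days.

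The following differences changed sign, and none was called in the fit reported or under the setting. Defb14 was -0.11 at 10 days at equal totals. For P95H at 28 minus 12 days, Slpi was -0.20 with a pseudocount of 8. On the deposited values S100a8 was 0.11, Defb14 0.47, Defb6 0.35 and Defb1 0.51, and with the replicate block S100a8 was 0.29 and Defb14 0.13. With edgeR in sorted knockout cells Defb14 was 0.46, against -1.13 by limma, and Defb1 0.14. The cause was not tested.

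With 1 library left out, the lowest and highest values of those that changed sign were as follows. In sorted knockout cells they were -0.34 and 0.57 for Defb1, -2.49 and 0.60 for Defb14, -0.53 and 0.11 for Defb6 and -0.19 and 1.998 for Slpi. Defb14 ran from -0.27 to 0.88 between 4 and 10 days, from -0.43 to 0.72 at 10 days, from -0.36 to 0.21 at 4 days and from -0.41 to 0.13 for P95H at 28 minus 12 days. Defb6 ran from -0.13 to 0.18 at 12 days of knockout. Lcn2 ran from -0.14 to 1.19 between 4 and 10 days and from -0.71 to 0.000204 after DMBA/TPA. S100a8 ran from -0.88 to 0.56 at 4 days and from -1.69 to 0.62 for P95H at 28 minus 12 days, and S100a9 from -0.40 to 0.79 and from -0.68 to 1.48 in the same comparisons. Slpi ran from -0.11 to 1.09 between 10 and 12 days, from -0.36 to 0.58 at 4 days, from -0.019 to 3.34 in P95H skin at 12 days, from -1.63 to 1.73 for P95H at 28 minus 12 days and from -1.02 to 0.069 after DMBA/TPA.

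Of single genes under other settings, 565 values kept direction and side of the threshold, 14 newly passed, 13 no longer passed and 10 changed sign. The spread between animals limits these results, with 2 P95H mice at 12 days, and counts of Camp and Defb3 are too low for a test in whole skin.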

Other observations

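The ratio of S100a9 to S100a8, the calprotectin subunits, was 1.64, 1.29 and 0.90 in the control replicates 1, 2 and 3 of the knockout set. In knockout skin it was 2.40, 1.61 and 1.3 at 4 days, 0.82, 1.38 and 0.73 at 10 days and 2.37, 1.98 and 1.63 at 12 days. In steps per library without regard to length, S100a9 was thus the higher in all 3 libraries at 12 days and in 1 of 3 at 10 days. The difference of the ratio between times was not tested.

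Mpo, a marker of neutrophil granules, read 20 to 61 steps at 12 days of knockout, 9 to 39 at 4 days, 2 to 4 at 10 days and 2 to 31 in controls, while Ly6g did not exceed 2 in these libraries. Elane, Ngp, Cxcr1, Mrgpra2b and Stfa2l1 did not exceed 5 in them either. In the P95H set Mpo itself did not exceed 5 steps in any library.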
